A study of Rattus norvegicus with 12 samples.

Results

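The mitochondrial ribosomal protein genes were followed across 3 groups of rat brain samples. They were taken by name: every gene whose symbol begins with Mrpl or Mrps followed by a digit, and whose counts summed to at least 50 over all columns of the deposited table. The name matched 76 of the 18800 gene symbols and 75 had enough counts. Mrps21l, with a summed count of 14.8, was left out, and the members with the lowest sums were Mrpl30 with 438, Mrps28 with 543, Mrps10 with 576 and Mrpl1 with 649. All 75 passed the filter on low counts, and 15485 genes were tested in all.

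All groups were brain tissue of Sprague-Dawley rats, and all rats were bundled, that is restrained in the same way. The control group had no electroacupuncture. The model group carried the MCAO/R model, an occlusion of the middle cerebral artery followed by reperfusion. The electroacupuncture group carried the MCAO/R model and received electroacupuncture, electrical stimulation through needles, at the Tianfu, Chize, Kongzui and Taiyuan acupoints. Age, brain region, side and the time after the operation are not given in the labels. The deposited columns named as sham-operated were taken as the control group, which is the labelled group with neither MCAO/R nor electroacupuncture.

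Mitochondrial ribosomes make the few proteins that mitochondrial DNA encodes, all of them subunits of the respiratory chain and of ATP synthase. Their ribosomal RNAs come from mitochondrial DNA, but all their proteins are encoded in the nucleus, made in the cytosol and imported. Compared with bacterial ribosomes they have lost RNA and gained proteins, so some members have a bacterial counterpart and others occur in mitochondria only. Neurons depend on oxidative phosphorylation, which needs these ribosomes. By textbook assignment 48 members belong to the large subunit, among them Mrps18a and Mrps30 in spite of their symbols, and 26 to the small subunit. The remaining one, Mrps36, is now counted to the 2-oxoglutarate dehydrogenase complex and not to the ribosome. Of the 74 ribosomal members 43 have a bacterial counterpart and 31 are specific to mitochondria.

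Some promoters of the members are shown here because short motifs bound by regulators of mitochondrial genes stood in a larger share of them than of tested genes. RefSeq (GRCr8) gave a promoter window, 250 bases before to 50 bases after the gene start, for 60 of the 75 members. The motif of NRF1, the nuclear respiratory factor, was searched as its palindrome, printed in capitals in the lines of Mrpl17 and Mrps18b. It stood in 4 of the 60 windows (6.67%) and in 1.76% of the 11346 windows of tested genes. The motif of ETS factors such as GABP was searched as CCGGAAG on both strands. It stood in 21 members (35.0%) against 15.8% of tested genes. The motif of YY1 was searched as AAGATGGC on both strands and was found in 15 members (25%) against 5.08%. Of the 15 YY1 matches 11 began at or after the gene start, outside the upstream bases printed below. At least 1 of the 3 motifs stood in 32 members (53.3%) and in 21.0% of tested genes, and Mrps18b alone among the members held all 3. The matches are descriptions of letters, and binding was not measured. The next lines give 100 bases directly upstream of the start of 5 members, 5′ to 3′ on the gene's strand. Each NRF1, ETS or YY1 match that lies wholly within these bases is in capitals. The ETS match of Mrps18b begins 3 bases before the start and runs past it, and its YY1 match lies after the start, so neither is marked. Mrpl17, Mrps18b and Mrpl36 show the 3 motifs (GCCATCTT is the YY1 motif on the other strand), and Mrpl23 and Mrpl58 are members whose counts were near 0 in 1 sample.
Mrpl17, chr1:169575700-169575799, minus strand: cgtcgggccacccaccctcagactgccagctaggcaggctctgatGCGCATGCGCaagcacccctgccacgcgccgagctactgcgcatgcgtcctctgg
Mrps18b, chr20:2842906-2843005, plus strand: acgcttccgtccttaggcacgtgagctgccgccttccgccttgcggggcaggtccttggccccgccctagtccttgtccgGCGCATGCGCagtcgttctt
Mrpl36, chr1:31795122-31795221, minus strand: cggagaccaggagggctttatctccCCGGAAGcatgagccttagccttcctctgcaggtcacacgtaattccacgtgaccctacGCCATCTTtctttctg
Mrpl23, chr1:207116830-207116929, plus strand: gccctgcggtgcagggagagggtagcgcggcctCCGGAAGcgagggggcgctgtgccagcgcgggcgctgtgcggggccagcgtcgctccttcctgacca
Mrpl58, chr10:101145242-101145341, plus strand: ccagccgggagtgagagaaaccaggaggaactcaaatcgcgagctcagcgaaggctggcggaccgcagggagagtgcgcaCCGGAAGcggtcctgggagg

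The group differences of members with and without a motif are given side by side, without a test. The 15 members with a YY1 match had a median log2 fold change of -0.06 in model against control, and the 45 without had -0.11. The 21 members with an ETS match had -0.15 and the 39 without had -0.06. For electroacupuncture against model these medians were 0.07 and -0.03 for YY1, and 0.00 and 0.01 for ETS.

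The labels list 12 samples, 4 per group, and the table holds 11 columns, of which 3 are control. In 3 pairs of columns from 1 group the counts differed by 1.34 to 1.40 times the sampling variance, close to what repeat counting of 1 library gives, so each pair was summed and counted as 1 sample. This left 3 control samples (A, B, C), 2 model samples (A, B) and 3 electroacupuncture samples (A, B, C; B is a sum), with total counts between 9335913 (control B) and 23835771 (electroacupuncture B). Whether samples are separate animals is not in the labels, and the p-values cover no more than the differences among samples, some of which could be technical. Genes marking brain regions differed between the samples. The 8 hippocampal markers summed to between 793.5 and 927.3 CPM (a gene's counts relative to the library total, scaled by the trimmed mean of M-values) in control, 216.1 and 218.4 in model, and 253.4 to 719.0 in electroacupuncture. The 7 striatal markers summed to 118.8 to 314.7 CPM in control, 216.4 and 523.6 in model and up to 3413 in electroacupuncture A. The 7 neocortical markers summed to 145.5 to 166.2 CPM in control, 212.9 and 733.8 in model A and B, and 166.5 to 211.1 in electroacupuncture. Cell type markers differed too. The 7 neuronal markers summed to 6186 to 7076 CPM in control, 4771 and 8770 in model A and B, and 3038 to 7231 in electroacupuncture, with the lowest in electroacupuncture A. Snap25 held the largest part of this sum, with 3140 to 3520 CPM in control and 1930 and 4910 in model A and B. In model against control 4 neuronal markers were higher and 3 lower in estimate. Among the lower, Rbfox3 was at 149 to 200 CPM in control and 74.8 and 142 in model A and B. Among the higher, Gad1 was at 115 to 129 CPM in control and 319 and 166 in model A and B. The 7 markers of microglia and macrophages summed to 136.6 to 181.7 CPM in control, 412.8 and 227.5 in model A and B, and 185.7 to 589.1 in electroacupuncture. The 6 oligodendrocyte markers summed to 41680 to 66110 CPM in control, 46570 and 24310 in model A and B, and 31240 to 73480 in electroacupuncture. In model against control 8 of 8 hippocampal and 6 of 6 oligodendrocyte markers were lower in estimate, and 7 of 7 markers of microglia and macrophages were higher. No marker of these lists was at 0 in any sample, and their part in the results was not tested. In bulk tissue, fewer cells of a type and less RNA per cell cannot be told apart.

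Most members were steady. Over the 8 samples the median coefficient of variation was 14.2% for the 75 members and 23.0% for the 14814 tested genes that averaged 1 CPM or more. The median of the member means was 36.3 CPM, and the 2 sets were not matched for level. In 67 members the highest sample was less than 2 times the lowest. The steadiest was Mrps15, a small-subunit protein with a bacterial counterpart, with 48.9, 45.8 and 47.5 CPM in controls A to C, 45.5 and 49.8 in the model samples A and B, and 47.4, 44.9 and 51.9 in the electroacupuncture samples A to C. The log2 fold change of Mrps15 was 0.01 (SE 0.13) in model against control and 0.01 (SE 0.13) in electroacupuncture against model. Member means ran from 3.94 CPM for Mrpl30, with Mrps28 and Mrps10 next, to 109 CPM for Mrps21, with Mrpl57 and Mrpl54 next. CPM is not corrected for transcript length, so this order ranks reads and not transcripts.

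**Figure D1:**
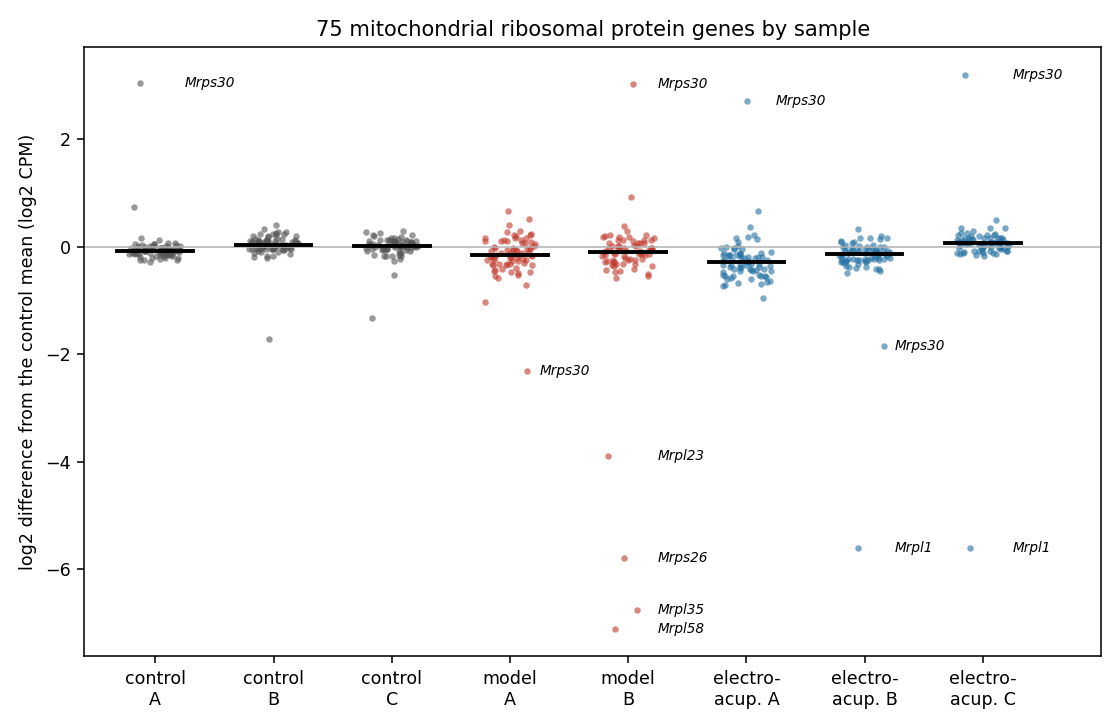
Each point is 1 of the 75 mitochondrial ribosomal protein genes, placed by its log2 CPM minus its mean log2 CPM over the 3 control samples (y axis) in each of the 8 samples (x axis), and black bars are medians. The medians lie between -0.28 (electroacupuncture A) and 0.06 (electroacupuncture C), and the labelled points far from 0 belong to Mrpl1, Mrpl23, Mrpl35, Mrpl58, Mrps26 and Mrps30.

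In the model group most members were slightly lower than in control, and none passed the test. By edgeR's quasi-likelihood test with Benjamini-Hochberg adjustment over all tested genes, 0 of 75 members were called at an adjusted p under 0.05 in either direction, against a background of 0.00646% of tested genes called higher and 0% called lower. DESeq2 called 0 of the 74 members to which it gave an adjusted p, against 5.10% of all genes with one. At an unadjusted p under 0.05, 0 members were higher, against a background of 7.61%, and 4 were lower, or 5.33% against 6.19%. In estimate 19 members were higher (background 51.5%) and 56 lower (74.7%, background 48.5%). The median log2 fold change was -0.11 for the members and 0.02 for all tested genes. The 2 model samples lay under all 3 control samples in 22 members (29.3%, background 19.6%) and over them in 4 (background 18.2%). Of the members 69 (92.0%) had an estimate within 0.5 of 0 on the log2 scale, as had 67.7% of all tested genes. The share was 97.3% for cytosolic ribosomal proteins, 100% for mitochondrial translation factors and 86.4% for nuclear-encoded respiratory chain subunits. It was 69.6% for assembly factors of the mitochondrial ribosome, so a high share was not particular to the members.

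This split around 0 depended on scaling and on single samples. With total counts instead of the trimmed mean of M-values, 37 members were higher and 38 lower. The members' median was then -0.01 and that of all genes 0.13, so the members' median was below that of all genes with either scaling. Without control B the split was 29 higher and 46 lower, and without control A the members' median was -0.19.

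The lower estimates were more frequent in the small subunit. Its 26 members had a median log2 fold change of -0.23, with 4 higher and 22 lower in estimate. In 12 of them (46.2%, background 19.6%) both model samples lay under all control samples, and in 2 (7.69%, background 18.2%) over them. The 48 large-subunit members had a median of -0.09, with 15 higher and 33 lower. In 10 of them (20.8%, near the background) both model samples lay under all control samples, and in 2 (4.17%) over them. Members with a bacterial counterpart had a median of -0.15 (7 higher, 36 lower) and mitochondria-specific members -0.03 (12 higher, 19 lower). The difference between these classes was not tested.

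Among the large-subunit proteins, the smallest p belonged to Mrpl16, a core protein near the site of peptide bond formation. Its level was 21.5, 21.3 and 21.5 CPM in controls A to C, 15.5 and 15.1 in the model samples A and B, and 19.3, 18.4 and 19.4 in the electroacupuncture samples A to C. The 3 groups did not overlap, with model lowest. The means were 21.4 ± 0.157 CPM in control (SD, n = 3), 15.3 ± 0.307 in model (n = 2) and 19.1 ± 0.558 in electroacupuncture (n = 3). The log2 fold change of Mrpl16 was -0.49 (SE 0.14, edgeR adjusted p = 0.197) in model against control and 0.32 (SE 0.14, edgeR adjusted p = 0.369) in electroacupuncture against model.

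Mrpl49, a large-subunit protein specific to mitochondria, had the largest difference among the members with an unadjusted p under 0.05. It stood at 17.6, 16.3 and 16.3 CPM in controls A to C, 11.1 and 11.2 in the model samples A and B, and 14.1, 21.0 and 18.8 in the electroacupuncture samples A to C. Both model samples were under the other 6, while control and electroacupuncture overlapped. Its log2 fold change was -0.59 (SE 0.20, edgeR adjusted p = 0.273) in model against control and 0.69 (SE 0.20, edgeR adjusted p = 0.221) in electroacupuncture against model. The gene starts head to head with Fau, which encodes a protein of the cytosolic small ribosomal subunit fused to a ubiquitin-like part. Fau did not share the low model samples, with 459 ± 76.7 CPM in control (SD, n = 3), 535 ± 85.1 in model (n = 2) and 470 ± 70.2 in electroacupuncture (n = 3). The 185 bases between the 2 starts (GRCr8) are shown on the strand of Mrpl49.
Mrpl49 to Fau, chr1:212779328-212779512, minus strand: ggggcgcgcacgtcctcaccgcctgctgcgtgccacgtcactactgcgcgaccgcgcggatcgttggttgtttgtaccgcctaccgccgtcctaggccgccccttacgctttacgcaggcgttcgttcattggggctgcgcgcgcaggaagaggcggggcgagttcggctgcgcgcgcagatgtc

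Mrpl17, a large-subunit protein with a bacterial counterpart, was at 71.6, 68.7 and 73.7 CPM in controls A to C, 49.0 and 58.3 in the model samples A and B, and 55.5, 75.2 and 72.5 in the electroacupuncture samples A to C. Model was under every control sample, and electroacupuncture A lay between the 2 model samples. Its log2 fold change in model against control was -0.41 (SE 0.17, edgeR adjusted p = 0.347). Mrpl10, part of the base of the stalk that binds translation factors, was at 36.6, 34.7 and 36.1 CPM in controls A to C, 30.3 and 27.9 in the model samples A and B, and 39.9, 39.7 and 35.0 in the electroacupuncture samples A to C. Model was again the lowest group, and its log2 fold change was -0.30 (SE 0.13, edgeR adjusted p = 0.379) against control.

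In the small subunit, Mrps10, a protein of the subunit's head, was at 5.68, 5.23 and 5.40 CPM in controls A to C, 3.27 and 4.05 in the model samples A and B, and 6.33, 6.08 and 6.12 in the electroacupuncture samples A to C. The groups did not overlap, and electroacupuncture was highest. The log2 fold change of Mrps10 was -0.57 (SE 0.24, edgeR adjusted p = 0.359) in model against control and 0.75 (SE 0.24, edgeR adjusted p = 0.254) in electroacupuncture against model. Mrps16, another small-subunit protein with a bacterial counterpart, averaged 34.9 ± 3.51 CPM in control (SD, n = 3) and 28.4 ± 2.06 CPM in model (n = 2), with both model samples under all 3 control samples.

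The members with higher estimates in model are described next. Mrps35, a mitochondria-specific protein of the small subunit, was at 47.9, 55.7 and 43.4 CPM in controls A to C, 70.2 and 55.4 in the model samples A and B, and 40.3, 45.5 and 45.7 in the electroacupuncture samples A to C. Model and control overlapped, and both model samples were above all electroacupuncture samples. Its log2 fold change was 0.36 (SE 0.17, edgeR adjusted p = 0.394) in model against control and -0.52 (SE 0.17, edgeR adjusted p = 0.251) in electroacupuncture against model. Mrpl57, a mitochondria-specific large-subunit protein and the most variable of the steady members with a 3.08-fold span, was at 90.4, 110 and 75.6 CPM in controls A to C, 145 and 95.5 in the model samples A and B, and 47.0, 67.8 and 95.1 in the electroacupuncture samples A to C. Model A was the highest and electroacupuncture A the lowest, and model overlapped control. Without model A the log2 fold changes in model against control were 0.17 for Mrps35 and 0.05 for Mrpl57, against 0.36 and 0.39 with it. The other members with the smallest p among the higher ones were Mrps27, which contains RNA-binding pentatricopeptide repeats, Mrpl38, Mrpl39 and Mrpl51, with log2 fold changes from 0.13 to 0.21.

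Electroacupuncture against model, which asks whether the stimulation moved these genes in operated rats, gave 0 of 75 members called by edgeR, against a background of 0% in either direction, and 0 of 74 by DESeq2, against 4.64% of genes. This comparison shares the model samples with the one before, so a member low in model enters both. At an unadjusted p under 0.05, 5 members were higher (6.67%, background 6.28%) and 2 lower (2.67%, background 7.17%). In estimate 41 were higher (background 53.3%) and 34 lower (background 46.6%), with a median log2 fold change of 0.01 against 0.03 for all genes. Groups did not overlap in 8 members higher (10.7%, background 12.9%) and 8 lower (10.7%, background 11.7%). The split was near even and moved to either side with the processing. It was 27 higher and 48 lower without electroacupuncture C (median -0.14), 49 and 26 without electroacupuncture A (median 0.09), and 36 and 39 without model A. It was 35 and 40 with total counts, 37 and 38 with DESeq2, and 36 and 39 with every column separate.

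The 5 higher members were Mrpl49, Mrps10, Mrpl10, Mrpl3 and Mrpl16, and the 2 lower ones Mrps35 and Mrpl57. Mrpl10 averaged 29.1 ± 1.71 CPM in model (SD, n = 2) and 38.2 ± 2.78 in electroacupuncture (n = 3), a log2 fold change of 0.39. Mrpl3, a core large-subunit protein with a bacterial counterpart, had 22 and 27.2 CPM in the model samples A and B, and 31.9, 30.3 and 35.7 in the electroacupuncture samples A to C. Its groups did not overlap, and its log2 fold change was 0.41 (SE 0.16, edgeR adjusted p = 0.336). Mrpl57 had a log2 fold change of -0.78 (SE 0.32, edgeR adjusted p = 0.345), with model B at 95.5 and electroacupuncture C at 95.1 CPM.

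**Figure D2:**
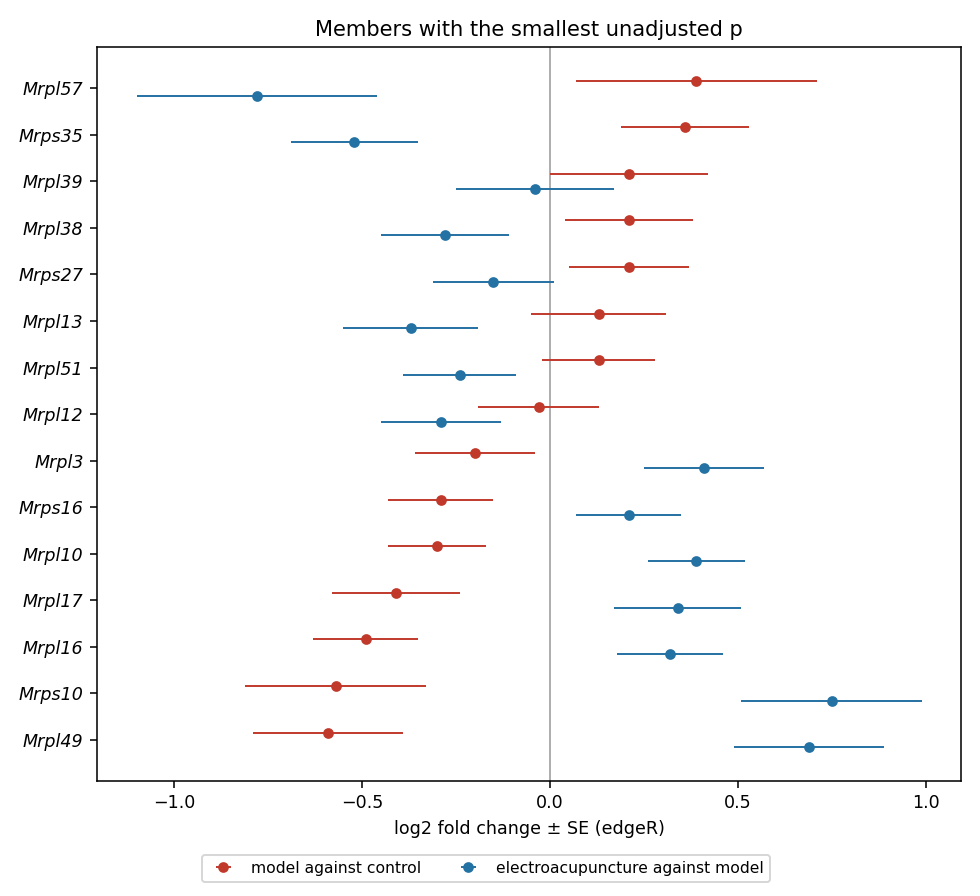
Points are log2 fold changes from edgeR (x axis) with bars of 1 standard error for 15 members (y axis). Model against control is red and electroacupuncture against model is blue. The members had the smallest unadjusted p among the higher and, in equal number, among the lower ones of each comparison. The balance of higher and lower members was therefore set by the choice. In model against control Mrpl51 (higher, edgeR unadjusted p = 0.416) is shown, while Mrps6 (lower, edgeR unadjusted p = 0.0853) is not. None of the 15 had an adjusted p under 0.05. The 2 comparisons share the model samples, so opposite signs in a row, as for Mrpl49 with -0.59 and 0.69, are not independent.

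Electroacupuncture against control, which shares its samples with both comparisons above, also gave 0 of 75 members called by edgeR, against a background of 0%, and 0 of 74 by DESeq2, against 0.00650% of genes. No member had an unadjusted p under 0.05 (0 higher against 2.71%, 0 lower against 0.956%). In estimate 15 were higher (background 50.7%) and 60 lower (80.0%, background 49.3%), with a median log2 fold change of -0.13 for members and 0.01 for all genes. With total counts the split was 28 higher and 47 lower, with a median of -0.06 for members and 0.09 for all genes. Without electroacupuncture A it was 25 higher and 50 lower, with a median of -0.04. In 7 members electroacupuncture lay under all control samples (9.33%, background 4.87%) and in 1 over them (background 5.97%).

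Mrpl12, which forms the stalk of the large subunit, had the smallest p of that comparison. It was at 65.2, 74.1 and 66.0 CPM in controls A to C, 65.1 and 68.8 in the model samples A and B, and 44.9, 58.3 and 61.1 in the electroacupuncture samples A to C. All 3 electroacupuncture samples were the lowest of the 8, and the log2 fold change against control was -0.32 (SE 0.15, edgeR adjusted p = 0.843). The other members named there as lower were Mrpl34, Mrps6, Mrpl47, Mrps36 and Mrpl18, with log2 fold changes from -0.34 to -0.27. In Mrpl34, Mrps6, Mrps36 and Mrpl18 electroacupuncture overlapped control, and in Mrpl47 it did not.

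Sample by sample, the members' median log2 difference from the control mean was -0.08, 0.04 and 0.02 in control A, B and C, -0.15 and -0.10 in model A and B, and -0.28, -0.13 and 0.06 in electroacupuncture A, B and C. The electroacupuncture samples thus spread over a wider range than the group differences. Of the 69 members spanning under 5 times, 36 had their lowest value in electroacupuncture A, which also held the lowest neuronal and highest striatal marker level. Another 14 were lowest in model A, and none in control B or electroacupuncture C. The highest value lay in control B for 17 members, and in control C and electroacupuncture C for 15 each. The small and the large subunit had medians of -0.36 and -0.25 in electroacupuncture A, and of -0.23 and -0.06 in model B.

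**Figure D3:**
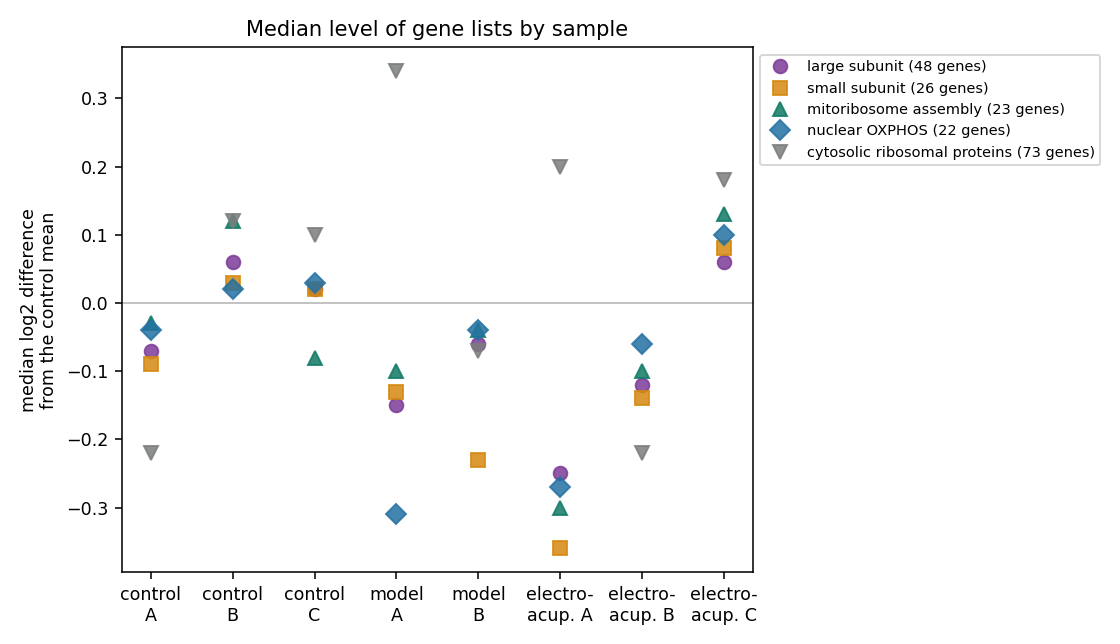
Median log2 difference from the control mean (y axis) in each of the 8 samples (x axis) for the large and small mitochondrial ribosomal subunits, their assembly factors, nuclear-encoded respiratory chain subunits (OXPHOS) and cytosolic ribosomal proteins. In electroacupuncture A the 4 mitochondrial lists lie between -0.36 and -0.25, while the cytosolic ribosomal proteins lie at 0.20.

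In the related mitochondrial lists edgeR called 0 genes, as it called 1, 0 and 0 of all 15485 tested genes in the 3 comparisons. DESeq2 called Ybey higher in model against control, 1 of 23 assembly factors (4.35%, background 5.10%). In electroacupuncture against model, where the background was 4.64%, it called Ybey lower (4.35%). Twnk was also lower there, 1 of 19 genes of mitochondrial DNA transcription and RNA handling (5.26%). These shares were near the background. Cs, the citrate synthase gene, and Hspa9 were called higher there, 2 of 11 abundant matrix and membrane proteins (18.2%). Of 22 nuclear-encoded subunits of the respiratory chain and ATP synthase, 2 were higher and 20 lower in model against control, with a median of -0.18. Of 11 abundant matrix and membrane proteins, 0 were higher and 11 lower, with a median of -0.27. The 73 cytosolic ribosomal proteins had 61 higher and 12 lower in estimate and a median of 0.12, the opposite sign to the mitochondrial members. The 5 mitochondrial ribosomal proteins with other symbols (Dap3, Ptcd3, Chchd1, Aurkaip1, Gadd45gip1) had 1 higher and 4 lower, with a median of -0.10.

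Factors that work on the ribosome split as follows. In model against control the 13 translation factors had 5 higher and 8 lower, the 20 aminoacyl-tRNA synthetases and amidotransferase subunits 11 and 9, the 23 assembly factors 11 and 12, and the 19 genes of mitochondrial DNA transcription and RNA handling 6 and 13. Ybey, an endonuclease of ribosomal RNA maturation, averaged 22.8 ± 5.09 CPM in control (SD, n = 3), 41.8 ± 9.91 in model (n = 2) and 19.1 ± 2.64 in electroacupuncture (n = 3). Its log2 fold change was 0.87 (SE 0.24, edgeR adjusted p = 0.197) in model against control and -1.13 (SE 0.24, edgeR adjusted p = 0.145) in electroacupuncture against model. Twnk, the helicase of mitochondrial DNA, was lower in electroacupuncture than in model, with a log2 fold change of -0.77 (SE 0.21, edgeR adjusted p = 0.206). Hspa9, the mitochondrial import chaperone mortalin, averaged 39.2 ± 4.07 CPM in control (n = 3), 30.7 ± 2.03 in model (n = 2) and 57.3 ± 6.48 in electroacupuncture (n = 3), with a log2 fold change of 0.90 (SE 0.16, edgeR adjusted p = 0.136) against model. The transcription factor Yy1 averaged 12.4 ± 0.301 CPM in model (n = 2) and 17.3 ± 2.61 in electroacupuncture (n = 3). Its log2 fold change was 0.48 (SE 0.18, edgeR adjusted p = 0.323). Of the 10 regulators of mitochondrial biogenesis in its list, 7 were higher and 3 lower in estimate there, with Ppargc1b at -0.86 (SE 0.42, edgeR adjusted p = 0.438).

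In 6 members the highest sample was at least 5 times the lowest: Mrpl1, Mrpl23, Mrpl35, Mrpl58, Mrps26 and Mrps30. Among genes reaching 10 CPM in some sample, such spans occurred in 8.33% of the 72 members and in 11.9% of the 11775 tested genes. In none of the 6 did the low samples make up a whole group.

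Mrpl23, Mrpl35, Mrpl58 and Mrps26 were near 0 in model B and nowhere else. Mrpl35, a large-subunit protein, was at 49.4, 53.7 and 49.0 CPM in controls A to C, 45.3 in model A, 0.328 in model B, and 36.7, 45.7 and 51.9 in the electroacupuncture samples A to C. Mrpl58, a peptidyl-tRNA hydrolase that sits in the large subunit and frees stalled ribosomes, was at 40.1, 44.2 and 41.8 CPM in controls A to C, 47.2 in model A, 0.164 in model B, and 28.6, 38.5 and 46.8 in the electroacupuncture samples A to C. For both, the lowest of the other 7 samples was over 100 times model B, with a ratio of 112 for Mrpl35 and 174 for Mrpl58.

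Mrps26, a mitochondria-specific small-subunit protein, was at 74.1, 88.1 and 87.7 CPM in controls A to C, 72.4 in model A, 1.37 in model B, and 58.0, 71.5 and 98.6 in the electroacupuncture samples A to C. Mrpl23, a large-subunit protein at the exit of the peptide tunnel, was at 33.2, 39.2 and 37.0 CPM in controls A to C, 41.4 in model A, 2.30 in model B, and 31.8, 30.1 and 35.9 in the electroacupuncture samples A to C. Both columns summed as model B showed the low values, with deposited counts of 13 and 12 for Mrps26, 21 and 21 for Mrpl23, 3.01 and 2.81 for Mrpl35, and 0 and 3 for Mrpl58. As these columns agree within about the noise of repeat counting, they are not separate evidence.

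Model B stood apart in this respect. In it 115 genes (0.977%) were at least 5 times under every other sample, 4 of them members, while the other samples had 14 to 50 such genes. Another 59 genes were at least 5 times over every other sample there, 0 of them members. Of the genes next to the low members on the chromosome (GRCr8 order), Reep1 and Immt beside Mrpl35 were at 72.6 and 93.4 CPM there, within 48.8 to 73.9 and 75.5 to 104 CPM in the other samples. Cdr2l and Atp5pd beside Mrpl58 were at 39.7 and 298 CPM in model B, within the range of the other samples, and so was Ptpra beside Mrps26 at 101 CPM. Igf2 beside Mrpl23 was lowest in model B, at 43.3 CPM against 61.3 to 172 CPM elsewhere. Tnnt3 beside Mrpl23 and Oxt beside Mrps26 were at most 1.21 and 0.227 CPM in any sample.

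With both model samples in the fit, the 4 members had log2 fold changes from -1.17 to -0.74 in model against control, with standard errors of 0.89 to 1.34. Without model A, model B was the whole group, and edgeR called all 4 lower, together with 2.24% of all genes in that fit. The 4 were picked for their low values in model B, so this call repeats the choice and is no test. Leaving out model B instead moved the estimates to 0.18 for Mrpl23, -0.17 for Mrpl35, 0.16 for Mrpl58 and -0.21 for Mrps26.

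Mrps30, a mitochondria-specific protein of the large subunit, was high in 4 samples and low in 4. It was at 41.0, 1.36 and 1.83 CPM in controls A to C, 0.857 and 40.4 in the model samples A and B, and 32.2, 1.23 and 45.1 in the electroacupuncture samples A to C. Each group held both levels, and the lowest high sample was 17.6 times the highest low one. The log2 fold change of Mrps30 in model against control was 0.48 with a standard error of 1.92, so the samples within groups differed far more than the groups.

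Other genes were split over the same samples. With at least 5 times between the 2 sets and at least 10 CPM in each higher sample, a rule chosen after these values were seen, 13 other genes were high where Mrps30 was high and 14 were high where it was low, with 0 members among the latter. Cops4, a subunit of the COP9 signalosome, was at 84.6 to 102 CPM in the 4 samples with high Mrps30 and listed at 0 in the other 4. Rpl27a, a cytosolic large-subunit ribosomal protein, was at 495 to 710 against 47.3 to 55.0 CPM. Rnf212, a meiotic ubiquitin or SUMO ligase, went the other way, with 35.4 to 39.5 CPM where Mrps30 was low and 1.48 to 1.97 CPM where it was high. The labels give no batch, litter or date that separates these samples.

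**Figure D4:**
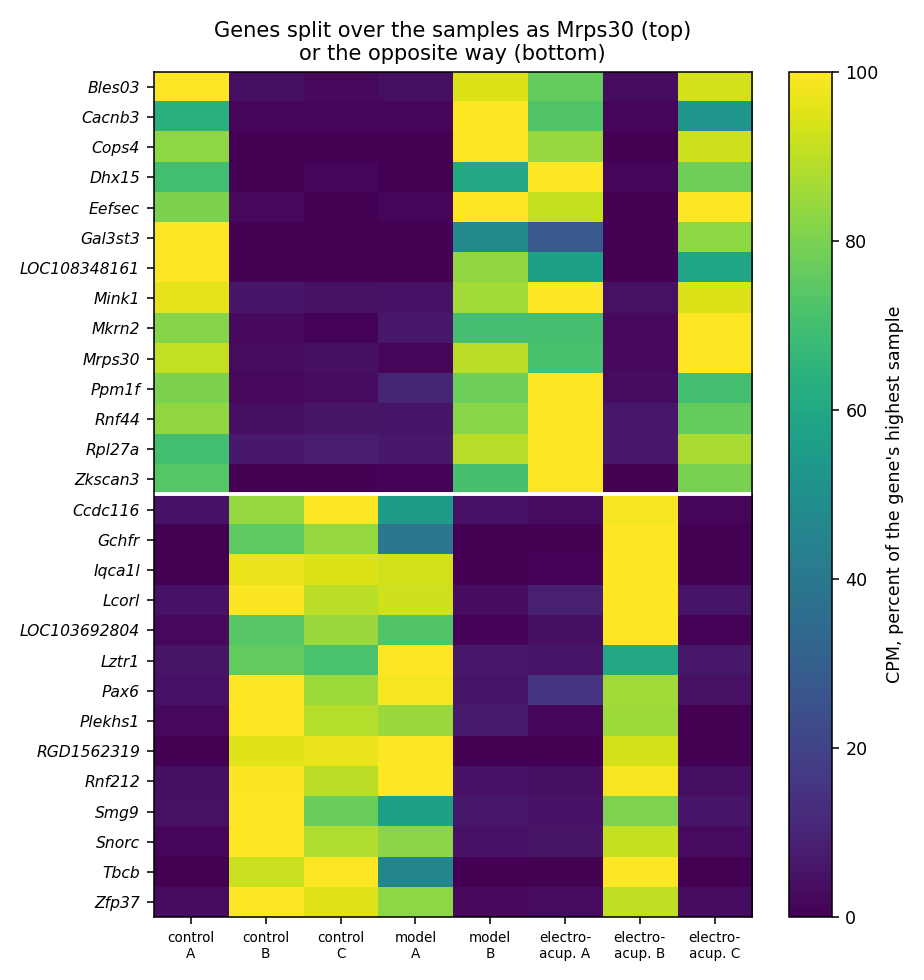
CPM of each gene as a percent of its highest sample (colour) in the 8 samples (columns) for Mrps30 and the 13 genes split the same way (above the white line) and the 14 genes split the opposite way (below). Control A, model B, electroacupuncture A and electroacupuncture C form one set and the other 4 samples the other, so every group holds both levels.

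Mrpl1, part of the stalk at the ribosome's exit site, was at 11.4, 5.80 and 4.67 CPM in controls A to C, 3.27 and 13.0 in the model samples A and B, and 10.8, 0 and 0 in the electroacupuncture samples A to C. A count of 0 allows up to 3 counts, or 0.126 CPM in electroacupuncture B and 0.300 CPM in electroacupuncture C, covering counting error only. Within the 2 near-identical columns summed as model A the deposited counts of Mrpl1 were 0 and 60.51. Such a pair, 0 in one column and at least 50 in the other, occurred in 16 genes there and in 16 and 15 genes of the other 2 summed pairs, with Mrpl1 the only member.

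**Figure D5:**
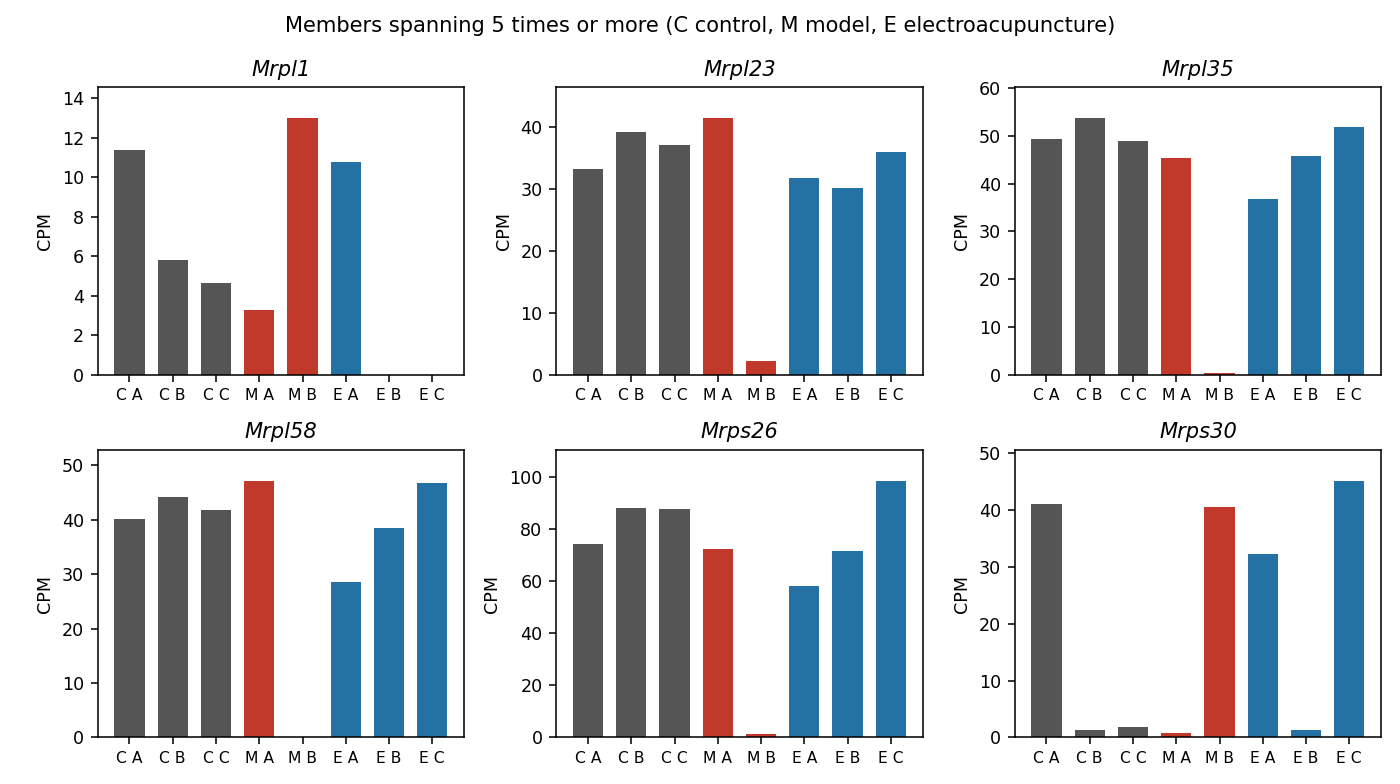
CPM (y axis, from 0) of the 6 members spanning 5 times or more, as 1 bar per sample (x axis; C control, M model, E electroacupuncture). Mrpl23, Mrpl35, Mrpl58 and Mrps26 are near 0 in model B, Mrps30 is high in 4 samples and at most 1.83 CPM in the other 4, and Mrpl1 is at 0 in electroacupuncture B and C.

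The deposited counts are estimates, and fractional values occurred in 21 members (28%), against 38.5% of all genes. In 12 of them every column was fractional: Mrpl10, Mrpl33, Mrpl35, Mrpl45, Mrpl47, Mrpl48, Mrpl51, Mrpl52, Mrpl53, Mrpl57, Mrps35 and Mrps7. Mrpl45 tethers the ribosome to the inner membrane, and Mrpl33 is among the smallest proteins of the large subunit. The other 54 members were whole in every column, and 2 had a 0 in some column, Mrpl1 in 4 columns and Mrpl58 in 1. Of the 6 members with large spans 4 were whole in every column, and Mrpl35 alone was fractional in every column.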

How the data were processed

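Poly(A)-selected RNA was sequenced, per the labels' protocols. Adapters held molecular identifiers, and how these were used in counting was not stated. The authors deposited expected counts, estimated read counts per gene that need not be whole, without normalization. Per the submitters' processing notes, the tools included DESeq2 1.16.1, featureCounts 1.5.0-p3, StringTie 1.3.3b and HISAT2 2.0.5. The role of each, the build, and the handling of reads that match several gene copies or pseudogenes were not given in the sources used here.

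Here columns of 1 group whose median squared difference was under 2 times the sampling variance were summed, 4 symbols on 2 rows were summed, and counts were rounded to whole numbers. All 3 groups entered 1 fit with edgeR 4.0.16 in R 4.3.3 (trimmed mean of M-values, filterByExpr, robust quasi-likelihood test, two-sided, Benjamini-Hochberg over 15485 genes), with 5 residual degrees of freedom and a biological coefficient of variation of 36.8%. Alternatives were DESeq2 1.42.0, other scalings and filters, separate columns, a replicate block, and each sample left out.

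Mitochondrial genes and lists were chosen with earlier results of these data known. Named members were those with an adjusted p under 0.05, the 6 higher and 6 lower with the smallest unadjusted p per comparison, the 3 highest and 3 lowest means, the 4 largest coefficients of variation, and those with a 0 in a column or fractional values in every column. Mrpl23, the chromosomal neighbours and the Mrps30-like genes were added after their values were seen. Of the other lists the 2 genes with the smallest p were eligible. RefSeq (GRCr8) held a current symbol for 74 of the 75 members and promoters for 60. In 2 genes with more than 1 window the first was used.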

Additional observations from a re-analysis of the deposited data

How the results depend on the processing

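The count of members called was 0 in all 3 comparisons with DESeq2, other scalings, other filters, the first column of each pair, or only the 2 groups compared. With every column separate, which treats near-identical columns as independent, it was 2 in model against control (Mrpl16, Mrpl49) and 4 in electroacupuncture against model (Mrpl49, Mrps10, Mrpl10, Mrps35). With a replicate block on the column numbers as well it was 0 and 1 (Mrpl49). The numbers were not taken to pair samples. Same-numbered columns correlated from -0.162 to 0.188, over 0.1 in 7 of 10 pairs, and differently numbered ones from -0.328 to 0.293. These values do not decide whether the numbers pair samples. Leaving out 1 sample gave 0 to 4 members in model against control and 0 to 4 in electroacupuncture against model. The 4, those near 0 in model B, came without model A, and 1, Mrpl1, without electroacupuncture A. Over all genes edgeR called 1, 0 and 0 in the 3 comparisons (model against control, electroacupuncture against model, electroacupuncture against control), DESeq2 called 770, 700 and 1, every column separate 1129, 1666 and 0, and that fit with the replicate block 471, 876 and 0. Without electroacupuncture A these counts were 565, 279 and 0, and without model A 357, 308 and 0. With only the 2 groups compared, 294 were called in the first. Median log2 fold changes ranged over left-out samples from -0.19 to -0.08, from -0.14 to 0.09 and from -0.18 to -0.04 in the 3 comparisons. Leaving out the 6 members with large spans, chosen after seeing the data, gave medians of -0.11, 0.01 and -0.12.

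Of 954 alternatives over 54 results of named members, 912 kept direction and side of the threshold, 16 moved past it and 26 reversed. The reversals, with the range over left-out samples, were as follows. In model against control the ranges were -1.16 to 0.83 for Mrpl1 (and -0.06 with the first column of each pair), -3.99 to 0.18 for Mrpl23, -7.92 to 0.16 for Mrpl58 and -4.10 to 3.68 for Mrps30. In electroacupuncture against model they were -9.87 to 0.13 for Mrpl1, -0.34 to 3.82 for Mrpl23, -0.01 to 7.05 for Mrpl35, -0.31 to 7.77 for Mrpl58 and -0.64 to 4.91 for Mrps30 (-0.05 with every column separate, -0.65 with the replicate block). In electroacupuncture against control they were -0.02 to 0.27 for Mrpl39, -0.02 to 0.12 for Mrpl46, -0.03 to 0.25 for Mrpl49, -0.31 to 0.02 for Mrpl58 and -0.35 to 0.03 for Mrps26. With the replicate block that comparison gave 0.14 for Mrpl23, 0.24 for Mrpl35, 0.26 for Mrpl58, 0.18 for Mrps26 and -0.06 for Mrps30. The cause was not tested.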

Other observations

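Some members share a bidirectional promoter region with another gene, and 1 such pair joins both subunits of the mitochondrial ribosome. Mrpl46 of the large subunit and Mrps11 of the small subunit start 233 bases apart on opposite strands (GRCr8, shown on the strand of Mrpl46).
Mrpl46 to Mrps11, chr1:142117031-142117263, minus strand: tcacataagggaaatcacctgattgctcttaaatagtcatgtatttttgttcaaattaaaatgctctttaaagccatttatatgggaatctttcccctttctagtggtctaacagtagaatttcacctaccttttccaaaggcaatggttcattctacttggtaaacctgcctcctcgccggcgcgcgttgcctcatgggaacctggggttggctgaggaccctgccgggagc

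Mrpl46 was at 18.5, 22.7 and 22.3 CPM in controls A to C, 19.5 and 18.9 in the model samples A and B, and 21.2, 21.0 and 24.6 in the electroacupuncture samples A to C. Mrps11 was at 30.6, 29.0 and 29.3 CPM in controls A to C, 34.7 and 30.9 in the model samples A and B, and 23.2, 27.9 and 34.5 in the electroacupuncture samples A to C. In model against control the log2 fold changes were -0.14 (SE 0.16) for Mrpl46 and 0.14 (SE 0.18) for Mrps11, both smaller than their standard errors. Mrpl47 starts 243 bases from Ndufb5, a subunit of respiratory complex I, and Mrpl32 starts 209 bases from Psma2, a subunit of the proteasome. Ndufb5 averaged 121 ± 2.06 CPM in control (SD, n = 3), 104 ± 2.63 in model (n = 2) and 109 ± 14.5 in electroacupuncture (n = 3). Psma2 averaged 103 ± 5.52, 84.4 ± 1.65 and 100 ± 24.8 CPM in the same order, and both model samples lay under all control samples in both genes. Among the 12 partners that are not members this was so in 3, Tcp1 beside Ndufb5 and Psma2 (background 19.6%). In 4, Eme1, Ncapd2, Helq and Ptcd2, both model samples lay over all control samples (background 18.2%). Of these, Eme1 was near 0 in control, at 0.183 to 0.227 CPM. Helq was at 5.36 CPM in model B against 5.34 CPM in control B.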
